A study of Mus musculus with 13 samples.

Results

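The genes of the cytosolic ribosomal proteins were examined in mouse thymus and in the other samples of 2 split-pool barcoding experiments. Members were taken from the gene lists of both experiments by symbol (Rpl or Rps followed by a digit, Rpsa, and Rplp0 to Rplp2), without the 322 pseudogene symbols that carry -ps. The rule took 104 of 57010 genes. Of these, 77 encode structural proteins of the ribosome (31 of the small subunit, 43 of the large subunit and 3 of the P stalk), 16 are paralogs or like genes, and 11 share the prefix only, such as the kinases named after ribosomal protein S6. The rule does not take 2 further structural genes, Fau among them, which were counted with other translation genes. Below, structural members are the 77. A share is the percentage of the unique molecular identifiers (UMIs, one per captured RNA molecule) outside ribosomal RNA that fell on them.

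The series set Parse split-pool barcoding against 10x droplet capture in thymus, and the 10x data were not analysed here. Thymi came from female C57BL/6N mice of 2 months, 2 mice per kit, and each lobe was dissociated with enzymes, fixed and barcoded as 1 sample, so that the 4 lobes of a kit are technical replicates from 2 animals. The larger kit (WT, here a kit name and not a genotype) held 4 thymic samples, called WT lobes 1 to 4, and 16 other samples, which the labels place in no group. Those labels name thymus and spleen and control and chronic stress treatments for the experiment without tying them to sample names, and the study describes the other samples as non-thymic and unrelated to the comparison, so they are given as ranges. Their names in the deposited cell table form 3 sets by prefix (CVS_C with 5 samples, CVS_S with 6 and YD_C with 5), which no label defines and which were not compared. The smaller kit (Mini) held 4 lobes, T-1-A, T-1-B, T-2-A and T-2-B. Kit and mice cannot be told apart.

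Quality control kept 39369 WT thymic cells, 19273 Mini cells and 81396 cells of the other samples, with a median of 2912 to 3900 UMIs per cell over the WT lobes and 2306 to 3078 over the Mini lobes. Cells were clustered without ribosomal protein genes, ribosomal RNA and mitochondrial genes, and clusters were named from fixed markers by thresholds set after the data were seen. The names are double negative (DN-like), proliferating, rearranging and signalled double positive (DP-P-, DP-R- and DP-S-like) and single positive (SP-CD4- and SP-CD8-like). Unnamed clusters took 25.4% of the WT thymic cells, 22.3% of the Mini cells and 27.1% of the others. Thymic cells and cells of the other samples were clustered and named apart, so a name used in both need not mean the same cells. In the WT kit 19867 of 103602 barcode combinations occurred in more than 1 sublibrary, and in the Mini kit 1360 of 18725, so the sublibrary was kept as part of each cell's name. One DP-R-like cluster of 760 cells came from WT lobe 1 alone.

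The cytosolic ribosome makes all proteins of the cell other than those encoded by mitochondrial DNA. Its small subunit reads the mRNA, its large subunit joins the amino acids, and the P stalk of the large subunit recruits the elongation factors. Ribosomal protein mRNAs start with an oligopyrimidine tract, by which mTOR signalling controls their translation, and thymocytes grow and divide in bursts as they pass from the double negative to the double positive stage. Rpl22 is known in this tissue because T cells of the alpha beta lineage depend on it.

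Promoter windows are shown for members that the results below turn on, because the start region is what the family is known to share. Each line gives 20 bases before the annotated start and 10 bases from it on the gene's strand, with the letters CTTTC in capitals. The sequences are those of RefSeq on GRCm38.p6, at chr7:141447631-141447660 (Rplp2, + strand), chr3:90213639-90213668 (Rps27, - strand), chr9:64173367-64173396 (Rpl4, + strand), chr7:45128736-45128765 (Rpl13a, - strand), chr9:120127746-120127775 (Rpsa, + strand), chr17:24720043-24720072 (Rps2, + strand) and chr12:100725111-100725140 (Rps6ka5, a kinase that shares the prefix only, - strand).
Rplp2: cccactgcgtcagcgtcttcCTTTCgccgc
Rps27: acaggatttccgCTTTCgctcCTTTCcggc
Rpl4: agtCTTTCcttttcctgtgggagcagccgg
Rpl13a: gataagaaaccctgcgacaagacctcctcc
Rpsa: tggctgtgggttatttaaggacgtcatttc
Rps2: tgcgtaggcagtcgagatctcgcgcttctt
Rps6ka5: ctgtctcctgggctggctgtgggaggagcg

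A promoter was matched for 57 of the 77 structural members. CTTTC, searched on the gene's strand from 40 bases before the start to 30 after it, was present in 20 of the 57 (35.1%) and in 2440 of 27025 promoters of all genes (9.03%). None of the 9 matched genes that share the prefix only held it. CTTCCG, the core of the sites bound by ETS factors, was searched on both strands of 300 bases around the start and was present in 40 of the 57 (70.2%), in 3 of the 9 (33.3%) and in 4639 of all 27025 (17.2%). These matches describe letters in the windows and were not tied to a factor.

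Structural members took a small part of the UMIs that split-pool barcoding counted in thymus, and their share differed between lobes. From droplet capture of the thymi used for the WT kit, the paper reports a much higher fraction of ribosomal gene counts. The shares here thus describe what these kits counted and not the make-up of the thymic transcriptome. WT lobe 1 had a share of 0.394%, lobe 2 of 0.828%, lobe 3 of 0.585% and lobe 4 of 0.653% (mean 0.615% ± 0.180, SD, n = 4). The Mini lobes had 0.308% (T-1-A), 0.341% (T-1-B), 0.293% (T-2-A) and 0.386% (T-2-B), with a mean of 0.332% ± 0.0411 (SD, n = 4). All WT lobes lay above all Mini lobes, and the lowest WT lobe lay close to the highest Mini lobe. With ribosomal RNA in the denominator WT lobe 1 and Mini T-2-B both had 0.326%, so the kits were no longer apart. Ribosomal RNA took 17.2%, 27.4%, 25.8% and 21.5% of the UMIs of WT lobes 1 to 4 and 12.9% to 15.5% of those of the Mini lobes, so the lobe with the highest share also had the most ribosomal RNA.

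The wells of 1 lobe differed as well. The 2 first-round wells of lobe 1 had shares of 0.361% and 0.422%, those of lobe 2 of 0.750% and 0.893%, those of lobe 3 of 0.499% and 0.685%, and those of lobe 4 of 0.598% and 0.670%. Lobes 1 and 2 did not overlap with any other lobe in these wells, and lobes 3 and 4 did: the wells of lobe 3 lay farther apart than lobes 3 and 4 as a whole. In Mini the 3 wells of a lobe ran from 0.291% to 0.342% (T-1-A), 0.304% to 0.366% (T-1-B), 0.271% to 0.307% (T-2-A) and 0.358% to 0.431% (T-2-B), with overlap between lobes. Sublibraries differed less, from 0.376% to 0.414% over 8 in lobe 1 and from 0.805% to 0.847% over 9 in lobe 2.

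Each structural member was detected in every WT lobe. In these 4 lobes the rule's genes together had 1230762 UMIs, of which the large subunit took 45.8%, the small subunit 36.9%, the P stalk 3.16%, the genes that share the prefix only 12.4% and the paralogs and like genes 1.73%. Mean levels of structural members ran from 18.5 CPM (counts of the gene per 1000000 UMIs outside ribosomal RNA, Rpl15) to 280 (Rpl4), with a median of 68.3. Per kilobase of exon they ran from 7.14 (Rpl27a) to 140 (Rpl4) CPM, a 19.6-fold span around a median of 38.7. This length is merged over all annotated transcripts and is not that of an mRNA, so it makes genes only roughly comparable. The 10 members with the highest level took 29.0% of the structural total. Genes of 1 complex were thus counted at unequal levels.

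The highest levels per kilobase were mixed over the subunits. The large subunit had Rpl4, whose protein lines the peptide exit tunnel, at 140 CPM per kilobase, Rpl13a at 123 and Rpl32 at 85.1. The small subunit had Rps15 at 132, Rps3a1 at 115, Rps4x at 111, Rps23, a protein of the decoding centre, at 89.1, Rps29 at 84.6 and Rps12 at 81.1. The P stalk gene Rplp1 had 114. The lowest 5 were Rpl18 at 12.3, Rps15a at 12.0, Rpl35a at 9.01, Rpl15 at 7.50 and Rpl27a at 7.14.

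The level per kilobase went with properties of the annotation. Over the 77 structural members it was lower in members with longer merged exons (Spearman rho -0.62), a length that is in its own denominator. It was higher in those with a larger percentage of the exon's 50-base words that other annotated genes share (rho 0.45). The level not divided by length had a rho of 0.23 with exon length, of 0.32 with gene length including introns and of -0.01 with the shared percentage. The relation with shared words thus appeared only per kilobase. The order of members was close between the kits (rho 0.91) and between WT thymic lobes and the other samples (rho 0.82). Genes are not independent replicates, and these are descriptions over 77 points that share libraries. A median of 21.0% of a member's 50-base words occurred in other genes, with up to 81.1% in Rpl36, and how the counting treated such reads makes single levels uncertain.

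Single members did not all follow the total from lobe to lobe. Rpl4 had 174, 398, 268 and 280 CPM in WT lobes 1 to 4, and Rps12 had 59.4, 274, 115 and 209. Rpl10, which joins the large subunit late in its assembly, had 25.9, 26.6, 26.8 and 22.4. Rpl4 and Rps12 were lowest in lobe 1 and highest in lobe 2, as was the total, whereas Rpl10 lay within a narrow range in all 4.

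The coefficient of variation (CV, SD over mean) over the WT lobes ran from 8.07% (Rpl10) to 58.3% (Rps12), with a median of 27.4%, while counting alone would give a median of 2.34%. Lobe 2 was the highest lobe for 69 of the 77 members and lobe 1 the lowest for 72. Divided by the lobe's structural total, the median CV was 11.5%, from 0.568% for Rpsa to 36.1% for Rps12. Over the Mini lobes the CV ran from 2.94% (Rpl4) to 32.4% (Rps21), with a median of 15.3%. The WT mean was above the Mini mean for 77 of 77 members, and for 46 of them all 4 WT lobes lay above all 4 Mini lobes, as they did for 6.40% of the 19383 genes with a UMI in each of the 8 lobes. The reverse held for 0 members and for 8.79% of those genes.

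**Figure D1:**
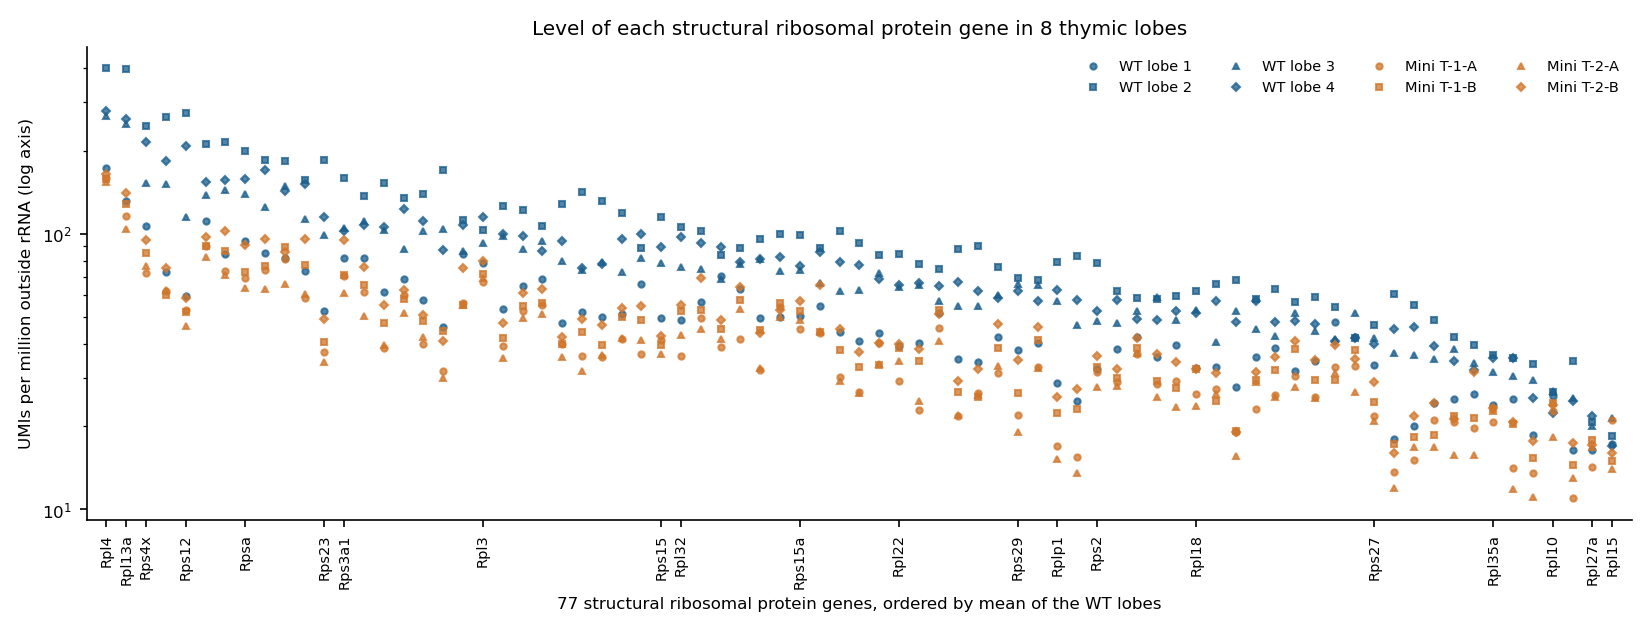
Levels of structural members in the 8 thymic lobes, in CPM on a log axis, with 1 point per lobe, ordered by the mean of the WT lobes and with some of the genes described in the text labelled. Rpl4 lies at 174 to 398 in the WT lobes and at 154 to 165 in the Mini lobes, while Rpl10 stays between 22.4 and 26.8 in the WT lobes.

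Among paralogs and like genes, Rpl10l, Rpl32l, Rps12l1 and Rps3a3 had no UMI in the WT lobes, where 3 counts over the 4 lobes would be 0.0186 CPM. Rpl22l1, the paralog of Rpl22, had 10.2, 22.2, 13.9 and 15.5 CPM in WT lobes 1 to 4 (mean 15.4 ± 5.03, SD, n = 4), against 39.1, 84.6, 64.1 and 65.1 for Rpl22. Both were lowest in lobe 1 and highest in lobe 2. The muscle paralog Rpl3l had a mean of 1.04 CPM and Rps27l one of 7.82. Rpl39l and Rps4l, at 0.0333 and 0.0861, were at the limit of detection.

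A few of the genes that share the prefix only were among the most counted genes of the rule, while others were low, down to a WT mean of 0.558 CPM for Rps6ka6. Rps6ka5, a nuclear kinase of the MSK family, had 337, 340, 312 and 291 CPM in WT lobes 1 to 4 and 356 to 378 in the Mini lobes. Rps6ka3, a kinase of the RSK family, had a WT mean of 316, and Rps6kb1, the S6 kinase downstream of mTOR, one of 196. Unlike the structural members, Rps6ka5 and Rps6ka3 had lower means in the WT than in the Mini lobes. With introns, Rps6ka5 spans 178545 bases, Rps6ka3 157938, Rps6kb1 45935 and the low Rps6ka6 149768, against 5292 for Rpl4. The paper reports more unspliced than spliced transcripts in its Parse data. The counts used here were not split in this way, so they are not levels of mature mRNA. The part of gene length in these levels was not tested.

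In DP-R-like cells of the WT lobes, each thinned to 1000 UMIs outside ribosomal RNA, the summed structural count varied more than a Poisson draw. The thinned cells numbered 1618, 2600, 2328 and 3963 in lobes 1 to 4, and 173, 1382, 1098 and 730 shallower cells were left out. The cells had a mean of 3.09, 5.93, 4.13 and 4.96 structural UMIs per 1000. The variance of the total over its mean was 1.46, 1.60, 1.42 and 1.69 in the 4 lobes, and the sum of the single members' variances over the same mean was 1.02 to 1.03. The counts of single members are so low after thinning that their own ratio is held near 1 and says little of their spread. The difference is the sum of the covariances between members within cells of 1 lobe and class. It includes differences between the pooled wells of a lobe, whose DP-R-like shares before thinning were 0.495% and 0.351% in lobe 3.

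Single members were seen in few of these cells. The median over lobes of the percentage of thinned cells with a UMI ran from 1.35% (Rpl27a) to 18.7% (Rpl13a), with a median over members of 4.75%. No structural UMI at all was drawn in 6.55%, 0.692%, 2.96% and 1.39% of the cells of lobes 1 to 4, and lobe 1, with the lowest share, had the most such cells.

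The share was lowest in DP-R-like cells, the quiescent stage that rearranges the alpha chain of the T cell receptor, and higher in stages before and after it. In WT lobes 1 to 4 DP-R-like cells had 0.293%, 0.599%, 0.409% and 0.500% (mean 0.450% ± 0.130, SD, n = 4). DN-like cells had 0.579%, 1.02%, 0.745% and 0.791% (mean 0.784% ± 0.183), and DP-P-like cells 0.457%, 0.906%, 0.662% and 0.715% (mean 0.685% ± 0.185). The pooled ranges overlapped because the lobes differed, but within every lobe both classes lay above DP-R-like cells.

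DP-S-like cells had 0.354%, 0.635%, 0.461% and 0.521% in WT lobes 1 to 4 (mean 0.493% ± 0.117, SD, n = 4). SP-CD4-like cells had 0.497%, 0.974%, 0.796% and 0.746% (mean 0.753% ± 0.197), and SP-CD8-like cells 0.601%, 1.08%, 0.812% and 0.803% (mean 0.825% ± 0.198). DP-S-like cells thus stood next to DP-R-like cells, and the single positive classes stood with DN-like cells.

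Divided by DP-R-like cells of the same lobe, the WT share was 1.58 to 1.98 times as high in DN-like cells, 1.43 to 1.62 times in DP-P-like cells, 1.04 to 1.21 times in DP-S-like cells, 1.49 to 1.94 times in SP-CD4-like cells and 1.61 to 2.05 times in SP-CD8-like cells. In the Mini lobes the ratios were 1.56 to 2.04, 1.37 to 1.76, 1.07 to 1.13, 1.43 to 1.68 and 1.53 to 2.08 in the same order, on a lower level: DP-R-like cells had 0.240%, 0.245%, 0.229% and 0.274% in T-1-A, T-1-B, T-2-A and T-2-B. Every ratio was above 1 in 4 of 4 lobes of each kit. As a score over the members, the share was not tested.

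**Figure D2:**
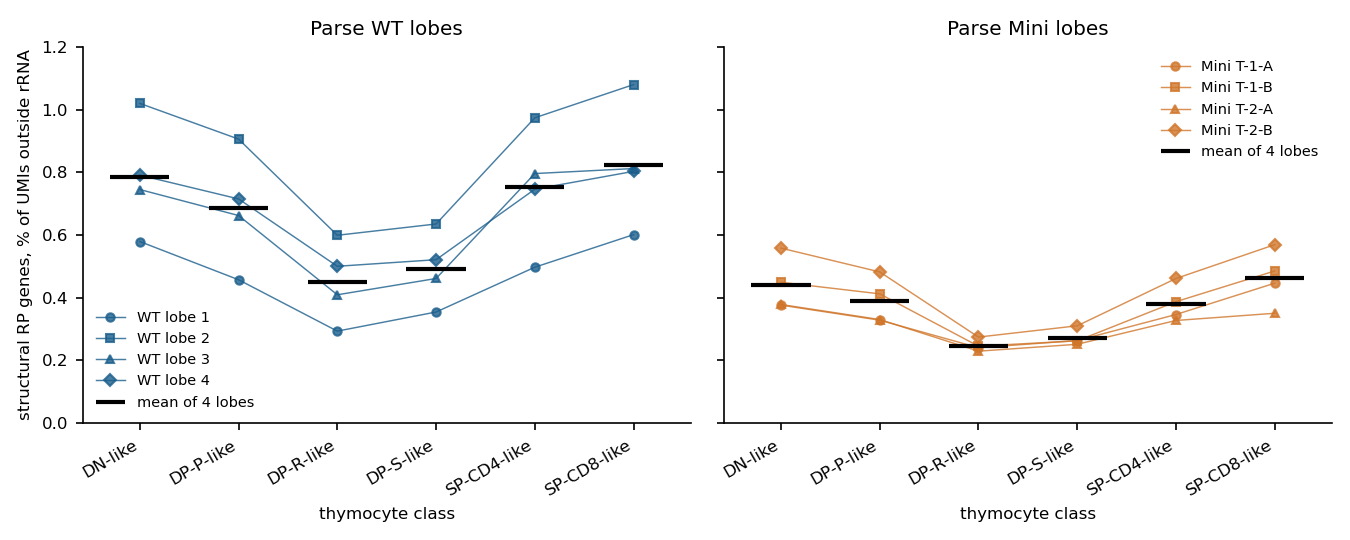
Percentage of UMIs outside ribosomal RNA on structural members, by thymocyte class and lobe, for the WT and the Mini kit, with 1 point per lobe and a bar at the mean of the 4 lobes. DP-R-like cells are lowest in each lobe, at 0.293% to 0.599% in the WT kit and 0.229% to 0.274% in the Mini kit.

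The classes differed in depth as well. The median UMIs per cell were 8429 to 10055 in DN-like and 7962 to 10161 in DP-P-like cells of the WT lobes, but 1748 to 2792 in DP-R-like and 1672 to 3117 in SP-CD4-like cells. With each cell thinned to 1000 UMIs, the ratios to DP-R-like cells in the WT lobes were 1.68 to 2.07 (DN-like), 1.44 to 1.67 (DP-P-like) and 1.53 to 2.05 (SP-CD4-like). In the Mini lobes they were 1.66 to 2.22, 1.38 to 1.73 and 1.33 to 1.72. Thinning leaves a cell's expected share unchanged and drops cells under 1000 UMIs, so it does not separate class from depth. Within cells of 4000 to 8000 UMIs the WT ratios were 1.87 to 2.28 (DN-like, 3 lobes) and 1.49 to 1.90 (DP-P-like, 4 lobes). Within cells of 2000 to 4000 UMIs that of SP-CD4-like cells was 1.51 to 1.91 (4 lobes). The part of depth in the class differences was not tested.

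Within DP-R-like cells the share was highest in the shallowest cells. The WT means were 0.586% (lobes 0.435% to 0.716%) in cells under 1000 UMIs outside ribosomal RNA, 0.477% (0.355% to 0.600%) at 1000 to 2000, 0.438% (0.296% to 0.576%) at 2000 to 4000, 0.416% (0.265% to 0.558%) at 4000 to 8000 and 0.399% (0.249% to 0.552%) at 8000 to 16000. Against the deepest of these bins in the same lobe, cells under 1000 UMIs had 1.30 to 1.75 times the share, higher in 4 of 4 lobes, and cells of 1000 to 2000 UMIs had 1.09 to 1.43 times. In the Mini lobes the means were 0.328%, 0.270%, 0.232%, 0.230% and 0.236%, and the ratio for cells under 1000 UMIs was 1.35 to 1.53 in the 3 lobes with enough deep cells. Above 2000 UMIs the Mini bins lay within the spread of the lobes.

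No single member carried this depth trend past the test. Between cells of 1000 to 2000 and of 8000 to 16000 UMIs, edgeR's quasi-likelihood test with lobe as a block called 0 of 77 structural members in the WT lobes and 0 of 76 in the Mini lobes, and DESeq2 likewise called 0 in both. At an unadjusted p under 0.05 there were 31 of 77 WT members (40.3%, against 9.06% of all genes) and 5 of 76 Mini members (6.58%, against 7.09%). Over all genes the test called 0.173% higher and 0.240% lower in WT, and 0.0504% and 0.139% in Mini. The median log2 difference of structural members was 0.31 in WT and 0.20 in Mini, against 0.00 and -0.00 over all genes. Without WT lobe 4 there were 3 calls. In the B cell-like cells of the other samples the median share was 0.456%, 0.421%, 0.392%, 0.429% and 0.426% from the shallowest to the deepest of the same bins, over 8 to 15 samples a bin. Within samples the order ran both ways, with cells under 1000 UMIs above those of 8000 to 16000 in 5 of the 7 samples with both (ratio 0.55 to 1.59).

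Single genes were then compared between classes on UMI counts summed per lobe and class, with edgeR's quasi-likelihood test, lobe as a block and Benjamini-Hochberg adjustment over all genes tested (11085 in WT and 9979 in Mini, 77 structural members in each). A called gene had an adjusted p under 0.05. The SE given with a log2 fold change is its absolute value over the square root of the test's F statistic. It is derived from the test and is not a value that edgeR reports. The p-values are over lobes, which share mice, and so measure the spread within mice more than that between animals. All named classes with at least 30 cells in a lobe entered the same fit of a kit and shared its dispersion. The spread behind a p-value thus comes from all these classes and not only from the pair compared. Shares of all genes beside a count were computed for these fits only, and not for the alternatives given with some results.

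Against DP-R-like cells, nearly every structural member rose in DP-P-like cells. Called higher were 76 of 77 members in WT, where 33.6% of all genes were called higher, and 75 of 77 in Mini (34.3% of all genes). None was called lower in either kit, against 33.2% and 30.2% of all genes. The median log2 fold change was 0.53 in WT (30 of 31 small subunit, 43 of 43 large subunit and 3 of 3 P stalk genes called) and 0.57 in Mini. In WT 41 of the 77 were called without the block, and in Mini 48 with each cell thinned to 1000 UMIs. For such alternative fits, here and in the comparisons below, the shares of all genes called were not computed. A lower count in them is thus not shown to be particular to structural members.

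Among structural members, the largest rises that ran the same way in every lobe of both kits were those of Rpl3, Rps2, Rpsa and Rpl10. Rpl3, a large subunit protein near the peptidyl transferase centre, had 41.6, 61.1, 50.2 and 64.2 CPM in DP-R-like cells of WT lobes 1 to 4 and 113, 118, 117 and 138 in DP-P-like cells. The groups did not overlap, and the log2 fold change was 1.11 (SE 0.06, edgeR adjusted p = 9.31e-19) in WT and 1.14 (SE 0.08, adjusted p = 7.95e-23) in Mini. Rps2 and Rpsa, both of the small subunit, rose by a log2 fold change of 1.09 (SE 0.07) and 1.05 (SE 0.06) in WT, and Rpl10 by 0.94 (SE 0.10).

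Rps27 was the 1 structural member not called in this comparison in WT. It had 31.0, 39.4, 39.0 and 35.4 CPM in DP-R-like and 34.1, 49.5, 44.4 and 39.4 in DP-P-like cells, so that the groups overlapped, with a log2 difference of 0.17 (SE 0.08, edgeR adjusted p = 0.0717). In Mini the difference was 0.03 (SE 0.12, adjusted p = 0.817).

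Of the 10 tested genes that share the prefix only, 3 rose and 5 fell in DP-P-like cells of WT, where 33.6% of all genes rose and 33.2% fell. Rps6ka2, a kinase of the RSK family, fell by a log2 fold change of -0.66 (SE 0.11, edgeR adjusted p = 2.62e-06) in WT and of -0.91 in Mini. Rps6kc1 fell in WT (-0.29, SE 0.08) and was at -0.15 in Mini (edgeR adjusted p = 0.0974). Rps6kl1, a kinase-like gene, rose (1.42, SE 0.31) from a mean of 0.865 to one of 2.39 CPM.

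DN-like cells gave a like picture. Structural members called higher than in DP-R-like cells were 75 of 77 in WT (30.5% of all genes) and 70 of 77 in Mini (28.9%), with 0 called lower (29.5% and 24.0% of all genes). The median log2 fold change was 0.68 in WT and 0.72 in Mini, and Rpl34 and Rps27 were the members not called in WT. With each cell thinned, 41 members were called in Mini.

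The leading structural members in DN-like cells were Rps2, Rps20, Rpl3 and Rps19. Rps2 had 17.9, 40.5, 27.0 and 31.0 CPM in DP-R-like cells of WT lobes 1 to 4 and 52.3, 101, 70.2 and 68.8 in DN-like cells, with no overlap (log2 fold change 1.20, SE 0.08, edgeR adjusted p = 2.81e-15). Rps20 rose by 1.19 (SE 0.08) on the log2 scale, Rpl3 by 1.18 (SE 0.07) and Rps19, the gene most often mutated in Diamond-Blackfan anaemia, by 1.14 (SE 0.09). Rps6kl1 had the largest rise of all rule genes, at 3.15 (SE 0.33), from 0.699 to 1.12 CPM in the DP-R-like to 5.10 to 11.5 in the DN-like cells of the WT lobes. Rps6kb1 fell (-0.40, SE 0.07), as did Rps6ka3 (-0.26, SE 0.06).

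Rpl22 and its paralog rose together in both classes. In DN-like cells of WT lobes 1 to 4 Rpl22 had 66.1, 101, 84.9 and 70.5 CPM, against 26.1, 55.1, 44.1 and 48.5 in DP-R-like cells (log2 fold change 0.73, SE 0.09, edgeR adjusted p = 1.29e-08). Rpl22l1 had 18.4, 26.8, 21.6 and 17.6 against 6.53, 15.1, 8.46 and 9.51 (0.92, SE 0.16, adjusted p = 6.19e-06). Neither pair of groups overlapped. In DP-P-like cells the log2 fold changes were 0.66 (SE 0.08) for Rpl22 and 0.80 (SE 0.12) for Rpl22l1.

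DP-S-like cells, which carry the marks of T cell receptor signalling, differed little from DP-R-like cells. Called higher were 8 of 77 structural members in WT and 5 in Mini, less than the 12.0% and 13.4% of all genes called higher. Called lower were 1 structural member in WT (14.0% of all genes) and 0 in Mini (12.4%). The median log2 differences were 0.07 and 0.14. The WT count was 0 without the block, 35 with clusters at a lower and 38 at double resolution, and the Mini count 23 and 11 at these resolutions, so it depended on the fit and on where the class was drawn. The shares of all genes called in these alternative fits were not computed, so the counts are not set against a background.

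Rpsa was called in DP-S-like cells of both kits. It had 49.6, 119, 68.0 and 97.1 CPM in DP-R-like cells of WT lobes 1 to 4 and 69.0, 141, 97.4 and 113 in DP-S-like cells, higher in 4 of 4 lobes but with overlapping groups (log2 fold change 0.29, SE 0.08, edgeR adjusted p = 0.00747). In Mini the value was 0.66 (SE 0.12, adjusted p = 1.12e-05). The other members called in WT included Rpl3 (0.41, SE 0.08), Rplp2 of the P stalk (0.31, SE 0.10) and Rps25 (0.29, SE 0.10). Of these, Rplp2 and Rps25 rose in every lobe of both kits, and Rpl3 did not.

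Of the 10 prefix-only genes tested in WT, 1 rose and 2 fell in DP-S-like cells, near the 12.0% and 14.0% of all genes. Rps6ka1, a kinase of the RSK family, had 14.9, 17.5, 22.4 and 16.2 CPM in DP-R-like and 44.7, 28.3, 34.1 and 27.4 in DP-S-like cells of WT lobes 1 to 4, with no overlap (log2 fold change 0.80, SE 0.15, edgeR adjusted p = 3.85e-05). Rps6ka5 fell from 367, 341, 320 and 294 to 214, 261, 250 and 219 (-0.52, SE 0.06, adjusted p = 1.42e-08). Rps6kb1 fell as well (-0.33, SE 0.07). All of these changes ran the same way in every lobe of both kits.

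In single positive cells most structural members rose against DP-R-like cells in WT and fewer were called in Mini. In SP-CD4-like cells 60 of 77 were called higher in WT (19.8% of all genes) and 30 in Mini (18.3%), and 0 were called lower (20.4% and 16.7% of all genes). The median log2 fold changes were 0.68 and 0.55. In SP-CD8-like cells 67 were called in WT (24.1%) and 39 in Mini (20.2%), with 0 called lower (21.8% and 19.2%) and medians of 0.74 and 0.69. The WT counts were 30 and 39 without the block. The Mini counts were 16 and 25 without T-2-B, and the SP-CD8-like count was 22 without T-1-B. With no filter on low counts they were 15 and 25, and with each cell thinned the SP-CD4-like count was 14.

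Rpsa and Rps2 led the structural members in both single positive classes. Rpsa had 144, 240, 217 and 209 CPM in SP-CD4-like and 157, 269, 259 and 261 in SP-CD8-like cells of WT lobes 1 to 4. Against DP-R-like cells its log2 fold change was 1.23 (SE 0.11, edgeR adjusted p = 2.09e-12) and 1.45 (SE 0.11, adjusted p = 1.57e-14), with no overlap of the groups. Rps2 rose by 1.21 (SE 0.15) and 1.51 (SE 0.15) on the log2 scale, Rps20 by 1.18 (SE 0.14) and 1.40 (SE 0.14), and Rpl3 by 1.10 (SE 0.12) and 1.27 (SE 0.12).

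The 3 P stalk genes rose in both classes in WT. In SP-CD4-like cells the log2 fold changes were 0.94 (SE 0.14) for Rplp0, the stalk base, 1.08 (SE 0.15) for Rplp1 and 0.83 (SE 0.14) for Rplp2. In SP-CD8-like cells they were 1.05 (SE 0.14), 1.10 (SE 0.16) and 0.87 (SE 0.15). Rps4x, encoded on the X chromosome, rose by 0.96 (SE 0.10) and 1.03 (SE 0.10), and Rpl39, of the exit tunnel, by 0.91 (SE 0.19) and 0.95 (SE 0.20). Rps27 rose in SP-CD4-like cells of WT (0.59, SE 0.18, edgeR adjusted p = 0.00825), where Mini had -0.33 (adjusted p = 0.552).

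Rps6ka1 and Rps6ka5 changed in opposite directions over these stages. Rps6ka1 had 62.0, 79.1, 71.3 and 58.4 CPM in SP-CD4-like cells of WT lobes 1 to 4, at a log2 fold change of 1.85 (SE 0.20, edgeR adjusted p = 6.45e-10) against DP-R-like cells. Rps6ka5 had 122, 113, 94.2 and 79.4 (-1.77, SE 0.11, adjusted p = 2.48e-17). In SP-CD8-like cells the values were 1.87 (SE 0.21) and -1.44 (SE 0.10). Neither gene's SP-CD4-like levels overlapped with its DP-R-like levels, and Rps6kb1 (-0.75, SE 0.11) and Rps6kc1 (-1.50, SE 0.23) fell with Rps6ka5 in SP-CD4-like cells.

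The step from DP-S-like to SP-CD4-like cells gave 52 structural members called higher in WT (15.8% of all genes) and 19 in Mini (13.5%), and 0 lower (15.4% and 12.8%). The WT count was 12 without the block and 17 with clusters at double resolution. The Mini count was 3 at double resolution, 7 with each cell thinned, 11 without the block, 9 with no filter on low counts and 9 without T-1-B or without T-2-B. Rplp1 had the largest rise that ran the same way in every lobe, from 26.1, 57.7, 40.0 and 41.9 CPM in DP-S-like to 33.2, 125, 71.3 and 105 in SP-CD4-like cells of WT lobes 1 to 4. The groups overlapped through lobe 1, and the log2 fold change was 1.05 (SE 0.17, edgeR adjusted p = 2.04e-06). Rps20 rose by 1.01 (SE 0.15), Rps7 by 0.89 (SE 0.13) and Rps18 by 0.81 (SE 0.13).

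Between the single positive classes, few members were called. In WT the test called 2 of 77 structural members higher in SP-CD8-like cells, Rpl41 (log2 fold change 0.61, SE 0.15, edgeR adjusted p = 0.00426) and Rpl13a (0.30, SE 0.09, adjusted p = 0.0230), where 6.52% of all genes were called higher. In Mini it called 1, Rps26 (3.64% of all genes). Called lower were 0 in both kits (5.41% and 3.88% of all genes), with 6 and 8 members at an unadjusted p under 0.05 in either direction (7.79% and 10.4%, against 23.3% and 18.0% of all genes), and DESeq2 called 1 higher in each kit. At double cluster resolution the counts were 7 and 4. Rpl41, Rpl13a and Rps26 were named after their values were seen.

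Over the 4 comparisons with DP-R-like cells other than DP-S-like, 57 of 77 structural members were called higher in all 4 in WT (8.00% of all genes) and 21 in Mini (6.91%). These comparisons share the DP-R-like cells. A term for the difference of each comparison between the kits, added after the data were seen, called 0 rule genes in any comparison, with 4 to 8 at an unadjusted p under 0.05. A call in WT and none in Mini is therefore not shown to be a difference between the kits. The shares of all genes were not computed for this term. The lack of calls is thus not set against a background, and it does not show that the kits were alike.

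**Figure D3:**
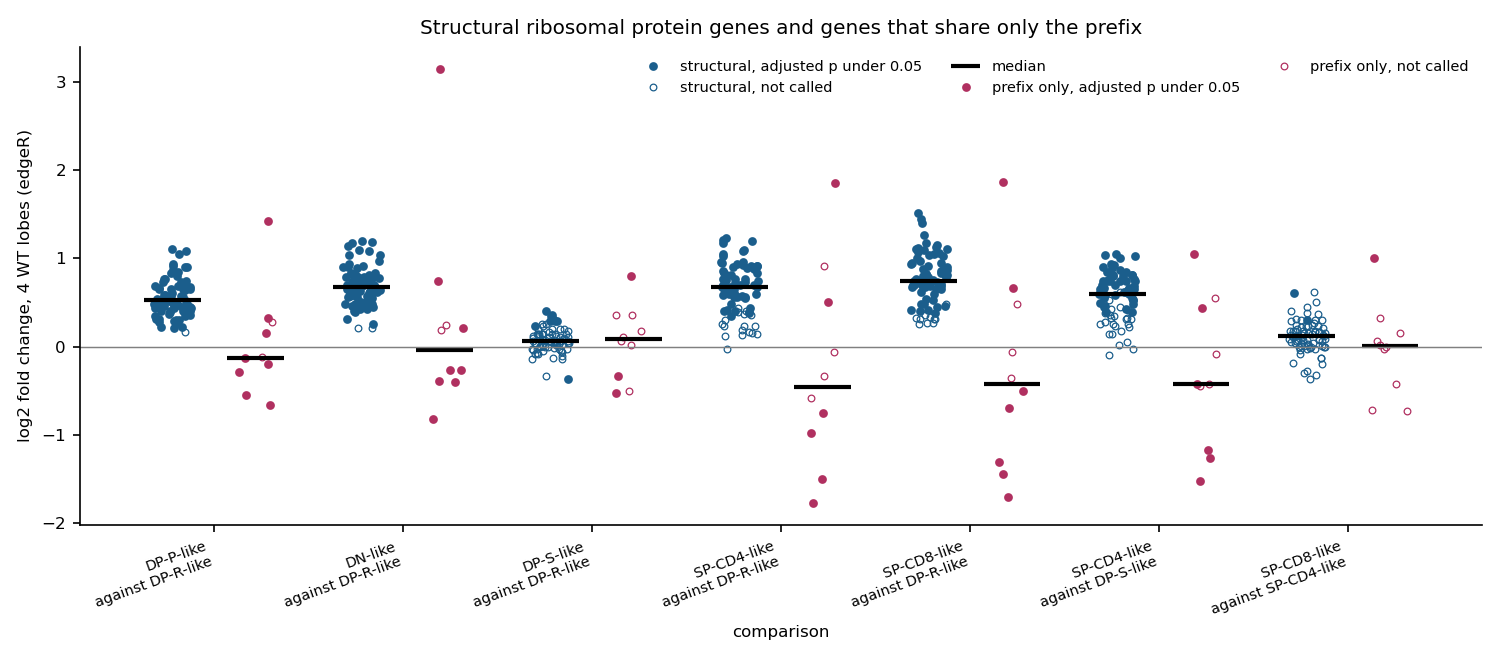
Log2 fold changes over the 4 WT lobes in each class comparison, with 1 point per gene, filled where the adjusted p was under 0.05, for structural members and for genes that share the prefix only, and a line at each median. The medians of the structural members lie at 0.53 to 0.74 for DN-, DP-P-, SP-CD4- and SP-CD8-like against DP-R-like cells, and at 0.07 for DP-S-like cells.

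Other genes of translation and ribosome production were counted in the same fits. For the counts that follow, the shares of all genes that rose and fell were 33.6% and 33.2% in DP-P-like, 30.5% and 29.5% in DN-like, 12.0% and 14.0% in DP-S-like, 19.8% and 20.4% in SP-CD4-like and 24.1% and 21.8% in SP-CD8-like cells of WT. Of 20 other translation mRNAs that start with an oligopyrimidine tract, 16 rose and 0 fell in DP-P-like cells of WT (median log2 fold change 0.38), 15 and 0 in DN-like (0.37), 7 and 0 in DP-S-like (0.14), 8 and 0 in SP-CD4-like (0.22) and 12 and 0 in SP-CD8-like cells (0.35). Eef1a1, the elongation factor that brings tRNA to the ribosome, rose by 0.90 (SE 0.06) in DP-P-like and 1.36 (SE 0.07) in SP-CD8-like cells. These medians were above those of all genes, -0.06 to 0.00, and below those of the structural members in all but DP-S-like cells.

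Of 21 ribosome biogenesis genes tested in WT, 19 rose and 1 fell in DP-P-like cells (median 0.98), 17 and 1 in DN-like (1.30), 15 and 1 in DP-S-like (0.49), 12 and 1 in SP-CD4-like (0.62) and 16 and 1 in SP-CD8-like cells (1.04). In DP-S-like cells most of these genes were called higher while few structural members were, a contrast that rests on where the class was drawn, since at the lower and the double resolution 35 and 38 structural members were called in WT. In the same class Polr1b, a subunit of RNA polymerase I, rose by 1.52, Gar1, of the box H/ACA particles, by 1.48, and Nolc1 by 1.04 on the log2 scale. Wdr12, which matures the large subunit RNA, fell by 0.84.

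Of 11 Myc and mTOR control genes, 3 rose and 5 fell in DP-P-like cells of WT and 3 and 4 in DN-like cells. Myc, which drives transcription of ribosome genes, rose by a log2 fold change of 2.34 (SE 0.17) in DP-P-like, 3.35 (SE 0.19) in DN-like, 1.44 (SE 0.28) in DP-S-like, 2.02 (SE 0.43) in SP-CD4-like and 3.34 (SE 0.33) in SP-CD8-like cells. The genes of the mitochondrial ribosome, which share the protein family but not the compartment, had medians near those of all genes and fewer calls than all genes in most comparisons: 26 of 77 rose and 7 fell in DP-P-like cells (median 0.16), 13 and 12 in DN-like (0.02), 4 and 2 in DP-S-like (0.07), 4 and 3 in SP-CD4-like (-0.09) and 4 and 2 in SP-CD8-like cells (-0.07).

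In the 16 other samples the whole-sample share ran from 0.339% to 0.640%, with a median of 0.442%. By cell class the medians ran from 0.258% (lowest 0.183%, highest 0.448%, 14 samples) in Neutrophil-like cells to 0.572% (0.292% to 0.778%, 15 samples) in CD8 T-like cells, with cells called DP-R-like at 0.641% (0.461% to 1.65%, 13 samples). A thymocyte class is at odds with samples described as non-thymic. These cells numbered 30 to 510 a sample, had a shallow median of 948 to 1321 UMIs and carried the DP-R markers. Their median for Rps12 was 268 CPM (84.7 to 778), against 115 (36.4 to 185) in the WT lobes, with overlap. The identity of the cells called DP-R-like was not tested, and without them CD8 T-like cells had the highest median. Macrophage-like cells had a median of 0.313%, NK-like 0.319%, Plasma cell-like 0.328%, cDC-like 0.328%, Monocyte-like 0.358%, pDC-like 0.361%, Treg-like 0.377%, B cell-like 0.412%, CD4 T-like 0.511% and Erythroid-like 0.550%. The ranges of neighbours in this order overlapped. With ribosomal RNA in the denominator the median of DP-R-like cells was 0.396% and that of CD8 T-like cells 0.402%, so their order turned. With each cell thinned to 1000 UMIs the median of CD8 T-like cells was 0.469%, below 0.527% in CD4 T-like and 0.551% in Erythroid-like cells, over 15, 11 and 15 samples.

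Within samples some pairs of classes kept 1 order. CD8 T-like cells lay above CD4 T-like cells in 11 of 11 samples (ratio 1.06 to 1.31), and CD4 T-like above Treg-like cells in 11 of 11 (1.01 to 1.37). Erythroid-like cells lay above B cell-like cells in 15 of 15 samples (1.09 to 1.78), and B cell-like above Neutrophil-like cells in 13 of 13 (1.33 to 2.48). Other pairs did not: CD8 T-like cells lay above Erythroid-like cells in 4 of 15 samples (median ratio 0.93), B cell-like above Treg-like cells in 8 of 14 and DP-R-like above Erythroid-like cells in 8 of 13. With each cell thinned to 1000 UMIs, CD8 T-like cells lay above CD4 T-like cells in 10 of 11 samples and Erythroid-like above B cell-like cells in 14 of 15. These are the same samples seen in several pairs, and no test was run on them. In the thymic lobes with both classes the order of Neutrophil-like and B cell-like cells was the reverse. Neutrophil-like cells had 1.54%, 0.950%, 1.01% and 0.463% in WT lobes 2 to 4 and Mini T-1-A, against 0.894%, 0.635%, 0.682% and 0.402% in B cell-like cells.

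**Figure D4:**
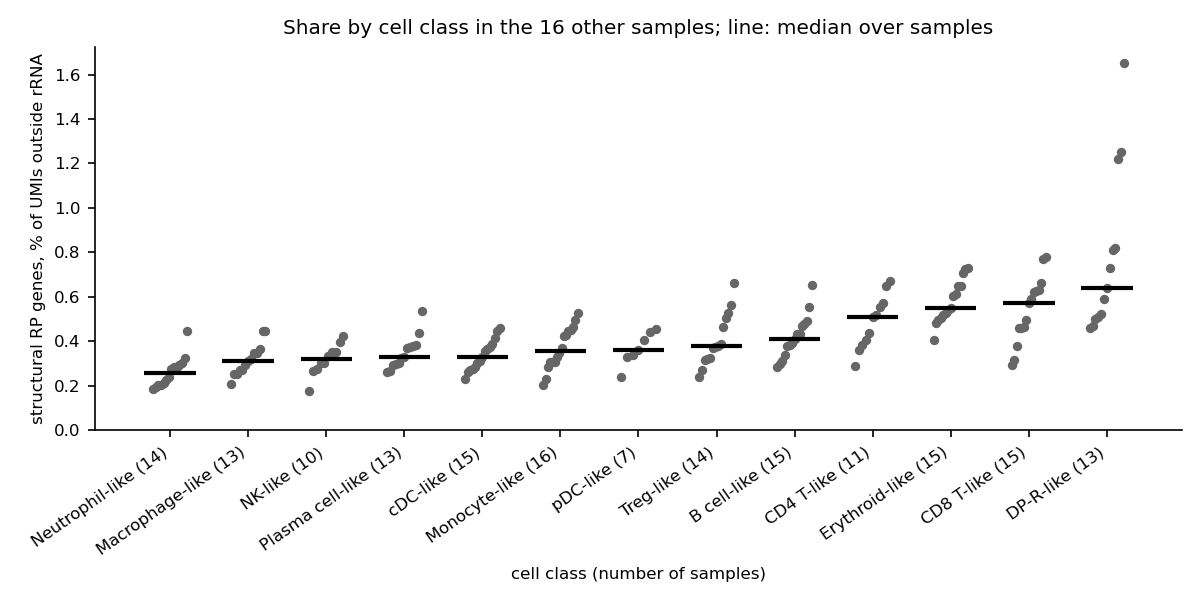
Percentage of UMIs outside ribosomal RNA on structural members, by cell class of the 16 other samples, with 1 point per sample and a line at the median. Neutrophil-like cells have the lowest median, 0.258%, and the cells called DP-R-like the highest, 0.641%, which with ribosomal RNA in the denominator is 0.396%, below the 0.402% of CD8 T-like cells.

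Class medians of single genes were compared without pDC-like cells, here and in the next paragraph. The largest ratios of these medians belonged mostly to genes that share the prefix only. Rps6ka2 had a median of 108 CPM (63.4 to 182) in Neutrophil-like and of 2.39 (0 to 10.7) in Erythroid-like cells, a ratio of 45.4, higher in 13 of 13 samples with both. Rps6ka4 had 22.4 in cDC-like and 1.81 in Erythroid-like cells (12.4, 15 of 15 samples), Rps6ka1 183 in Neutrophil-like and 17.0 in Erythroid-like cells (10.7, 13 of 13), and Rps6kc1 275 in Macrophage-like and 28.5 in Erythroid-like cells (9.63, 12 of 12). Each of these kinase genes was lowest in the erythroid class, where the structural share was high. In the pDC-like cells left out, Rps6ka1 had a median of 428 CPM (361 to 503, 7 samples), above that of Neutrophil-like cells.

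Among structural members Rps12 had the largest ratio, which rests on the cells called DP-R-like in these samples, with a median of 268 (84.7 to 778) in DP-R-like and 44.2 (19.6 to 154) in Neutrophil-like cells (6.05, higher in 12 of 12 samples). It was also the member with the largest spread over the WT lobes. The smallest ratios were those of Rps6kb1 (1.44), Rpl18 (1.91), Rpl37 (1.94), Rpl7l1 (1.98) and Rps10 (2.21). Of the members followed for their paralogs, Rpl3 had a ratio of 3.71, Rpl22l1 of 2.96, Rpl22 of 2.66 and Rpl10 of 2.40, each lowest in Neutrophil-like cells.

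Rpl21, Rpl26 and Rpl29 lay higher in all 8 whole lobes than in all 16 other samples, which makes 3 of 77 structural members where 11.5% of the 19383 genes did so. The same 3 members did so within B cell-like cells, where 10.9% of the 8341 genes with a UMI in all 8 lobes did. In both comparisons the share of members was below that of all genes. Within B cell-like cells 0 structural members lay lower in all 8 lobes, against 2.99% of the genes. These 3 members were chosen after their values were seen and are given for B cell-like cells of the 4 WT lobes, the 4 Mini lobes and 15 other samples. Rpl21, of the large subunit, had 68.1 to 281 CPM (median 188) in the WT lobes, 65.7 to 107 in the Mini lobes and 18.6 to 44.5 (median 34.3) in the other samples. Rpl26 had 36.5 to 152, 46.7 to 60.5 and 3.41 to 14.1. Rpl29 had 28.0 to 43.9, 7.78 to 50.4 and 1.14 to 6.93. In Rpl29 the Mini lobes came nearest to the other samples, and their lowest value rests on 1 UMI in 28 cells, so that gene is not apart beyond counting error. The class drew on different clusters in the kits, with 502 WT cells in one and 251 in the other, against 9 and 129 in Mini, and the 291 cells of WT lobe 1 had a median of 998 UMIs.

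Rps3a2, annotated as a processed pseudogene with 90.2% of its 50-base words shared with other genes, ran the other way. It had 2.38 to 14.3 CPM (median 8.70) in B cell-like cells of the other samples and 0 in those of all 8 lobes, where 3 counts over the group would be 1.21 CPM in WT and 3.54 in Mini. Rpl10 was the 1 structural member lower in all 8 whole lobes than in all other samples, as 13.1% of all genes were, and it overlapped in B cell-like cells (24.8 to 51.0, 23.7 to 55.4 and 21.6 to 52.0). In the DP-R-like cells of the other samples Rpl26 ranged from 0 to 44.8 CPM, against 39.6 to 100 in those of the WT lobes and 31.2 to 33.6 in Mini. Rpl21 had 32.5 to 126 there, against 50.6 to 198 and 36.5 to 46.7, and Rpl29 had 0 to 33.8, against 20.2 to 27.3 and 8.14 to 16.8, so all 3 overlapped in this class. WT lobes and other samples went through the same kit, and what else set them apart was not tested.

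**Figure D5:**
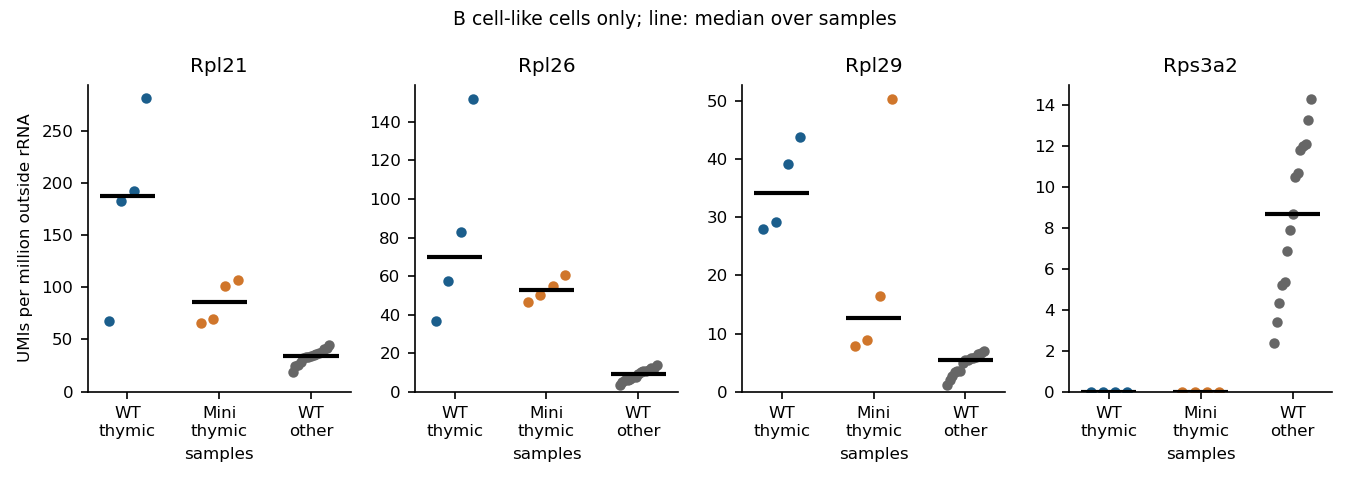
Levels of Rpl21, Rpl26, Rpl29 and Rps3a2 in B cell-like cells, in CPM, with 1 point per sample and a line at the median, for the WT lobes, the Mini lobes and the other samples. Rpl26 lies at 36.5 to 152 in the lobes of the WT kit and at 3.41 to 14.1 in the other samples, and Rps3a2 is at 0 in every lobe.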

How the data were processed

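The deposited values are raw UMI counts per cell and gene, which the authors made with split-pipe on each sublibrary against an index of the mm10 reference of Ensembl and combined per kit. No source used here gives the split-pipe version. GEO's samples are sublibraries, and each cell's tissue sample was read from the deposited cell table, where the 4 thymic samples of the WT kit were recognised by name. Cells of 500 to 25000 UMIs with at most 15% mitochondrial UMIs were kept. No doublet caller was run, whereas the paper called doublets in both Parse kits and removed them. Cells of at most 10000 UMIs served as an alternative. Median depth in the WT lobes was 1748 to 2792 UMIs in DP-R-like and up to 10161 in DP-P-like cells. This limit thus keeps doublets of shallow cells and drops many deep cells, and does not stand in for doublet removal. Clusters came from 2000 variable genes, 30 principal components, 20 neighbours and Leiden resolution 1.5 (scanpy 1.11.5, leidenalg 0.10.2). A cluster was named where at least 3 fixed markers, and at least as many as were not raised, were raised 1.25-fold. The mean log2 ratio had to be at least 0.4, with a lead of 0.25 over the next class. No other class could have more markers among the cluster's leading genes. Clusters far shallower than their samples stayed unnamed unless a marker of the class was among their leading genes. These thresholds were set after the data were seen. Counts were summed per lobe and class with at least 30 cells (25 for the comparison of B cell-like cells) and tested with edgeR 4.0.16 (R 4.3.3), with ribosomal RNA left out of the library size, after filterByExpr. DESeq2 1.42.0 was the alternative tool. Classes of the same lobe are paired by design, so the lobe was the block.

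The depth of the lobes was 17404268 to 66170412 UMIs outside ribosomal RNA in WT and 17507669 to 19012722 in Mini. Members, lists and named genes were chosen with earlier results of these data known. Named genes were the 10 highest and 5 lowest structural members per kilobase in WT lobes, in each comparison up to 5 called members each way that moved alike in every lobe of both kits, the 5 largest and 5 smallest ratios between classes of the other samples, and a fixed list of paralogs and kinases. Identifiers were matched to GENCODE M21 for 103 of the 104 rule genes, whose exons gave lengths and 50-base words, and promoters came from RefSeq. Counts carry counting error only. Results of some genes are not reported here. The edgeR steps were tested on simulated data.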

Additional observations from a re-analysis of the deposited data

How the results depend on the processing

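The main limits are the 2 mice per kit, the class names and the depth of single members. Counts below are structural members called higher, of 77, by edgeR. The shares of all genes called in the alternative fits were not computed.

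Fewer WT members were called without the lobe as a block. Without the block, that is with the pairing of classes within a lobe ignored, the WT counts were 41 for DP-P-like, 59 for DN-like, 0 for DP-S-like, 30 for SP-CD4-like and 39 for SP-CD8-like against DP-R-like cells, 12 for SP-CD4-like against DP-S-like and 0 for SP-CD8-like against SP-CD4-like cells. Without it in Mini the last 2 were 11 and 0, and the block changed no other count by over 1.5 times.

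With each cell thinned to 1000 UMIs, Mini gave 48 (DP-P-like), 41 (DN-like), 3 (DP-S-like), 14 (SP-CD4-like) and 7 (SP-CD4-like against DP-S-like), and WT 3 for DP-S-like cells. With no low-count filter, WT gave 3 (DP-S-like), 1 (SP-CD8-like against SP-CD4-like) and 2 (depth bins), and Mini 2 (DP-S-like), 15 (SP-CD4-like), 25 (SP-CD8-like), 9 (SP-CD4-like against DP-S-like) and 0 (SP-CD8-like against SP-CD4-like). Clusters at the lower resolution gave 35 WT and 23 Mini calls for DP-S-like cells and no single positive classes, hence no value for them. At double resolution the counts were 38 and 11 for DP-S-like, 17 and 3 for SP-CD4-like against DP-S-like, and 7 and 4 for SP-CD8-like against SP-CD4-like cells, in WT and Mini. Both kits in 1 fit gave 15 for DP-S-like cells and, chosen after seeing the data, 4 for the depth bins. For SP-CD8-like against SP-CD4-like cells DESeq2 gave 1 in WT, cells of all depths 1 in WT and 2 in Mini, and cells of at most 10000 UMIs 2 in Mini. Cells of all depths gave 2 in Mini for DP-S-like cells.

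Leaving out each lobe in turn gave, in WT and Mini, 73 to 77 and 64 to 71 calls for DP-P-like, 74 to 77 and 60 to 68 for DN-like, 5 to 11 and 2 to 4 for DP-S-like, 52 to 61 and 16 to 28 for SP-CD4-like and 58 to 65 and 22 to 38 for SP-CD8-like cells. It gave 44 to 50 and 9 to 15 for SP-CD4-like against DP-S-like, 1 to 2 and 0 to 2 for SP-CD8-like against SP-CD4-like cells, and 0 to 3 in WT for the depth bins.

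With ribosomal RNA in the denominator the mean shares were, in WT, 0.593% in DN-like cells and 0.453% and 0.371% in DP-R-like cells under 1000 and of 1000 to 2000 UMIs. In Mini they were 0.217% in DP-R-like and 0.238% in DP-S-like cells and 0.237%, 0.204%, 0.201% and 0.205% in the bins from 1000 UMIs up, and the medians of the other samples were 0.346% (CD4 T-like), 0.402% (CD8 T-like), 0.396% (DP-R-like), 0.388% (Erythroid-like), 0.227% (Plasma cell-like) and 0.278% (pDC-like). With every gene of the rule counted, WT cells of 1000 to 2000 UMIs had 0.588%. Mini had 0.573% (DN-like), 0.519% (DP-P-like), 0.364% (DP-R-like), 0.378% (DP-S-like), 0.476% (SP-CD4-like) and 0.574% (SP-CD8-like), and 0.446%, 0.391%, 0.347%, 0.347% and 0.351% over the bins. The medians of the other samples were then 0.386% (Macrophage-like), 0.459% (Monocyte-like), 0.420% (NK-like), 0.369% (Neutrophil-like), 0.413% (Plasma cell-like), 0.450% (cDC-like) and 0.488% (pDC-like). Thinning was run for the shares of the depth bins from 1000 UMIs up, but not for the bin under 1000 nor for the edgeR comparison of bins. Cells of all depths were not used as an alternative for the bins and the other samples.

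Of the log2 fold changes of named genes under all alternatives, 1075 kept direction and side of the threshold, 57 no longer passed it, 11 newly passed it and 2 reversed: Rps25 in DP-S-like cells of Mini after thinning (-0.20) and Rplp1 in SP-CD4-like against DP-S-like cells of Mini at double resolution (-0.00). Except where a value's construction shows it (fewer cells or UMIs), the cause was not tested.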

Other observations

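Some classes that are rare in thymus had a higher structural share in WT lobes than in most other samples. Neutrophil-like cells had 1.54%, 0.950% and 1.01% in WT lobes 2 to 4, and cDC-like cells 0.806% to 0.993% in the same lobes. WT lobe 1, the lowest WT lobe in every class counted there, had too few cells of either class. In the other samples the ranges were 0.183% to 0.448% and 0.232% to 0.461%, with no overlap with lobes 2 to 4. In Mini 1 lobe (T-1-A) had enough Neutrophil-like cells, at 0.463%, just above the range of the other samples. Treg-like cells had 0.470% in WT lobe 1, 0.621% to 0.898% in lobes 2 to 4 and 0.240% to 0.663% in the other samples, with overlap. Higher values in WT lobes were thus not particular to myeloid classes. DP-R-like cells went the other way, with 0.293% to 0.599% in the WT lobes and 0.461% to 1.65% in the other samples, with overlap. Neutrophil-like cells had a median of 5642 to 6584 UMIs in the WT lobes and of 1476 to 3426 in the other samples. Classes were named apart in the lobes and the other samples, and whether 1 name covers the same cells was not tested. The labels place the other samples in no group, so no test was run.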
